A study of Homo sapiens with 8 samples.

Results

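The regions described here are the sites of open chromatin that were listed in both libraries of human embryonic stem cells (ESC) and in no library of 3 later stages of cardiac differentiation. Peaks of 8 ATAC-seq lists on chromosomes 1 to 22 and X were merged wherever they overlapped, which gave 285853 regions. Of these, 8597 had a peak in both ESC lists and in none of the other 6, or 3.01% of all merged regions. By the same rule 7901 regions (2.76%) were held by mesoderm alone, 2083 (0.729%) by cardiac progenitors alone and 3000 (1.05%) by cardiomyocytes alone. These shares follow from the rule itself and carry no test.

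The 8 libraries were made from RUES2, a widely used line of human pluripotent cells, with 2 replicates per stage. ESC were taken at day 0, before that day's medium change, mesoderm (MES) at day 2, cardiac progenitors (CP) at day 5 and cardiomyocytes (CM) at day 14. Per the paper's culture methods, the medium held CHIR99021 from the day before ESC were taken until after the MES stage. It then held XAV939 until day 5. No genotype other than that of the line was given for these libraries, and nothing in the labels says that the replicates of a stage came from separate cultures or differentiations, so that p-values measure only the spread between these libraries. The differentiation turns a culture into a mixture of cells, and a peak that is lost from fewer cells of a type and a peak that is weaker in each cell cannot be told apart in bulk libraries.

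ATAC-seq marks DNA that the Tn5 transposase can reach, chiefly promoters and enhancers. In pluripotent cells many enhancers are bound by the transcription factors OCT4 (POU5F1) and SOX2, which can sit side by side on a composite DNA element, a SOX part followed by an octamer part. Together with NANOG and PRDM14 they hold the cells undifferentiated, and their binding is lost as the cells leave pluripotency. Old retroviral repeats are a known source of such elements in human stem cells.

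The ESC lists held 103118 and 156117 peaks. The MES lists held 108340 and 156179, the CP lists 99789 and 120133, and the CM lists 92731 and 55777. A peak is absent from a list when it missed the caller's q-value threshold of 0.01 in that library, which is not a measurement of closed chromatin. Promoters of 12 pluripotency markers, POU5F1, NANOG and SOX2 among them, had a peak within 1 kb in 12 of 12 cases in both ESC and both MES lists, in 11 in both CP lists and in 10 and 9 in the CM lists. The NANOG promoter had a peak in both ESC and both MES lists and in no CP or CM list. Of these 12 promoters, 8 had a listed peak in all 8 libraries, and the peaks at POU5F1, DPPA4 and L1TD1 were missing from 1 CM list each. Of 12 cardiomyocyte markers, 6 and 7 had a promoter peak in the ESC lists and 11 and 9 in the CM lists. MYH7 had none in any list.

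The letters of the OCT4-SOX2 composite stood near the summits of 246 of the 8597 ESC-only regions. The composite was searched as TTGTNATGC on both strands, in 200 bp around the summit of highest −log10 q. The stretches below carry it in capitals, with 25 bases on each side, in the orientation of the motif. They were taken from the regions with the composite among the 15 strongest ESC-only regions, at the 20 genes with the most ESC-only regions, in the 10 largest clusters and at listed stem cell genes, in order of the weaker of the 2 ESC folds, by which regions are ranked as stronger or weaker throughout. All coordinates are GRCh38.
PTPRD, chr9:10921835-10921893, minus strand: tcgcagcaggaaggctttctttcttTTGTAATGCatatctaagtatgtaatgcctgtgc
TENM4, chr11:78974001-78974059, minus strand: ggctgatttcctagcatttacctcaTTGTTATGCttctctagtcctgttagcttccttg
FLRT2, chr14:85179001-85179059, minus strand: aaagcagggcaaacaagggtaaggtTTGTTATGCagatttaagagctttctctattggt
SPRY2, chr13:81382471-81382529, minus strand: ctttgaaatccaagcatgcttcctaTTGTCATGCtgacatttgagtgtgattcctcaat
C4orf33, chr4:130185307-130185365, plus strand: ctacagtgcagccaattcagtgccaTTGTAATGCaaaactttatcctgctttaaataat
SLITRK1, chr13:82981819-82981877, minus strand: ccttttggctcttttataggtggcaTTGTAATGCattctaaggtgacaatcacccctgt
SLC7A11, chr4:138112579-138112637, minus strand: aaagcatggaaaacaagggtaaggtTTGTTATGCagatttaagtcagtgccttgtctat
LINC-ROR, chr18:57075892-57075950, minus strand: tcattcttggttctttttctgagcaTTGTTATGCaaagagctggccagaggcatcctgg

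The first of these, 308.8 kb from the nearest TSS of PTPRD, had the highest value of the weaker ESC fold among all ESC-only regions, though not the highest fold in either library. It lies in intergenic DNA at chr9:10921505-10922039, and its fold over the local background was 11.8 in ESC replicate 1 and 12.3 in ESC replicate 2. The composite lay 1.5 bp from its summit. The last lies at chr18:57075773-57076099, 3.8 kb from LINC-ROR, a noncoding RNA gene known for its role in reprogramming to pluripotency. Its folds were weaker, 4.02 and 3.06, and its composite lay 3.5 bp from the summit. The nearest later-stage peak lay 412 bp from this region, beside 5492 bp for the region near PTPRD. The stretches at FLRT2 and SLC7A11 resemble each other beyond the capitals, although they lie on different chromosomes.

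Fold over background was used as the strength of a peak. In the ESC-only regions it had a median of 4.60 in ESC replicate 1, with a range of 1.90 to 12.1, and a median of 4.64 in ESC replicate 2, with a range of 1.81 to 14.1. The 2 libraries overlapped over the whole range, and 3981 regions (46.3%) were stronger in replicate 1. Spearman's rho of the 2 folds was 0.63 over the 8597 regions, which share the libraries' depth and are not independent replicates. Summits of the 2 libraries lay a median of 31 bp apart, and in 67.3% of regions within 50 bp. In both lists 2068 regions (24.1%) reached 5-fold, and 17 reached 10-fold. The median −log10 q was 7.52 in replicate 1 and 10.8 in replicate 2, over a median width of 332 bp. The median peak was a pileup of 21 reads over a background of 3.39 in replicate 1 and of 30 reads over 4.86 in replicate 2, as recovered from the deposited fold and −log10 p.

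**Figure D1:**
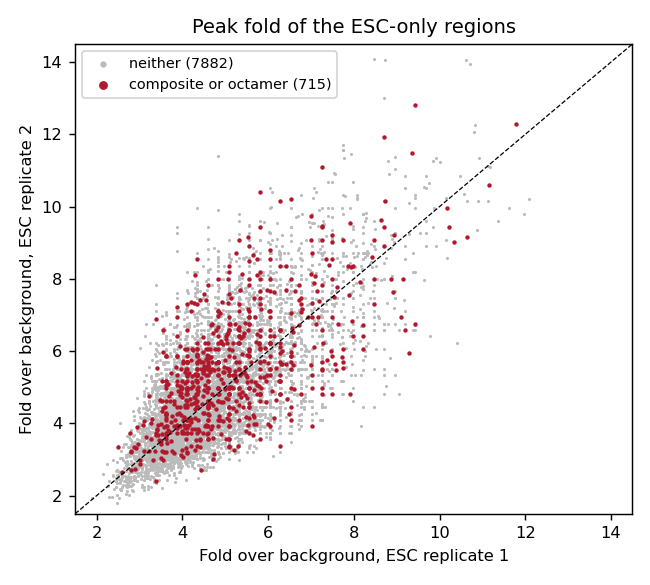
Fold over background of the 8597 ESC-only regions in ESC replicate 1 (x axis) and ESC replicate 2 (y axis), 1 point per region, with the line of equal folds. The 715 regions with the OCT4-SOX2 composite or the octamer (red) lie along the whole cloud, and their median folds of 4.87 and 5.34 were above those of the other 7882 regions, 4.56 and 4.63.

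ESC-only regions were weak among ESC peaks. Of 84598 regions with a peak in both ESC lists, they made up 10.2%. Their median ESC folds were 4.60 and 4.64, beside 4.60 and 4.84 for regions shared with a lone later-stage list and 6.96 and 7.15 for the 28115 regions listed in all 8 libraries. The share within 1 kb of a protein-coding TSS went from 2.37% to 49.1% over the same range, and the median distance to that TSS from 65546 bp to 1321 bp. Just outside the rule stood 7763 regions with a peak in a lone later-stage list, and 4844 of these were held by MES replicate 2, the longest list. At those 4844 regions the median fold in MES replicate 2 was 4.25, beside 4.84 and 4.99 in the ESC libraries. Without MES replicate 2, 13511 regions would be ESC-only (5.15% of the regions merged from the other 7 lists). Another 7809 regions were listed in ESC replicate 1 alone, with a median fold of 3.96, and 31529 in ESC replicate 2 alone, with a median of 3.74.

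**Figure D2:**
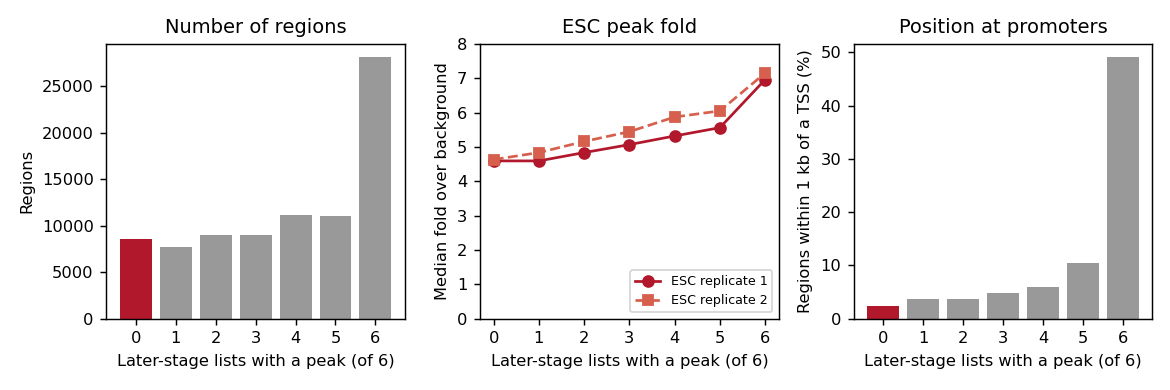
Regions with a peak in both ESC lists, split by how many of the 6 later-stage lists also held a peak (x axis), shown as the number of regions, the median fold over background in each ESC library, and the share within 1 kb of a protein-coding TSS (%). The 8597 ESC-only regions (red, at 0) had the lowest median fold in ESC replicate 2, 4.64, and the lowest share at promoters, 2.37%, beside 49.1% for regions in all 8 lists.

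Most ESC-only regions lay far from protein-coding TSSs, in introns or intergenic DNA. Only 204 (2.37%) were within 1 kb of a protein-coding TSS, 251 (2.92%) lay in exons, 3418 (39.8%) in introns, 1375 (15.99%) in lncRNA genes and 3349 (39.0%) in intergenic DNA. Over 100 kb from any protein-coding TSS lay 40.6% of them, beside 32.8% of all merged regions. MES-only regions were placed almost alike, with 2.13% within 1 kb and 39.8% beyond 100 kb. When the TSSs of all annotated transcripts were used in place of protein-coding ones, 7.48% of the ESC-only regions lay within 1 kb. The median GC content of the 200 bp around the summit was 48.5%, as in MES-only regions, beside 52.5% over all merged regions. The nearest peak of a later stage lay a median of 3489 bp away, and 22.01% of the ESC-only regions had one within 1 kb.

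Strength and position went together. Split into quartiles by the weaker ESC fold, the regions lay a median of 35219 bp from a TSS in the weakest quartile and 96129 bp in the strongest, and the share within 1 kb went from 5.91% to 0.868%. The composite stood in 1.58% of the weakest and 4.48% of the strongest quartile, the octamer (ATGCAAAT) in 3.40% and 8.63%, and the SOX letters (CATTGT) in 10.2% and 20.1%. The KLF/SP letters (GGGCGG), common at CpG-rich promoters, went the other way, from 11.7% to 2.99%.

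Of 13 consensus motifs, the OCT4-SOX2 composite, the octamer and SOX were more frequent in ESC-only regions than in the regions of each other stage, and GATA was less frequent. The CTCF core, at 12.7%, was close to the 12.2% of CP-only regions and above MES-only (10.5%) and CM-only regions (9.20%). No test was made over regions. The composite stood in 2.86% of ESC-only regions (95% Wilson interval 2.53 to 3.24%, counting error only), beside 0.367% of MES-only, 0.432% of CP-only, 0.70% of CM-only and 0.643% of all merged regions. The octamer stood in 5.79% (5.32 to 6.31%), beside 2.101%, 0.240%, 0.70% and 1.65%. In 29 regions both were found. The end of the composite can be the start of an octamer, and whether the matches overlapped was not checked. The composite followed by AAA, the fuller form of the element, stood in 43 ESC-only regions (0.50%), in 3 MES-only regions (0.0380%) and in 196 of all merged regions (0.0686%). A match of letters is a description of the sequence and not a binding site.

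The other motifs separated the stages in other ways. SOX letters stood in 14.7% of ESC-only regions and in 9.85%, 11.6% and 10.5% of MES-, CP- and CM-only regions. The letters of TEAD factors (GGAATG), the DNA-binding partners of YAP, stood in 18.5%, beside 11.6%, 16.8% and 19.5%. The GATA letters (AGATAA), those of the factors that drive mesendoderm and heart genes, stood in 7.30% of ESC-only regions and in 22.9%, 22.3% and 24.3% of the others. The T-box letters of TBXT and EOMES (AGGTGTGA) stood in 1.64%, beside 7.05% of MES-only regions, and the OTX letters (GGATTA) in 7.67%, beside 18.3%. The ZIC letters (CAGCAGG) stood in 12.0%, the CTCF core (CNAGNNGGC) in 12.7%, the AP-1 letters (TGANTCA) in 10.1%, the KLF/SP letters in 6.27%, the TFAP2 letters (GCCNNNGGC) in 6.58% and the FOX letters (TGTTTAC) in 2.92%. Over all merged regions these 6 shares were 14.1%, 16.02%, 8.08%, 11.9%, 10.5% and 3.42%.

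**Figure D3:**
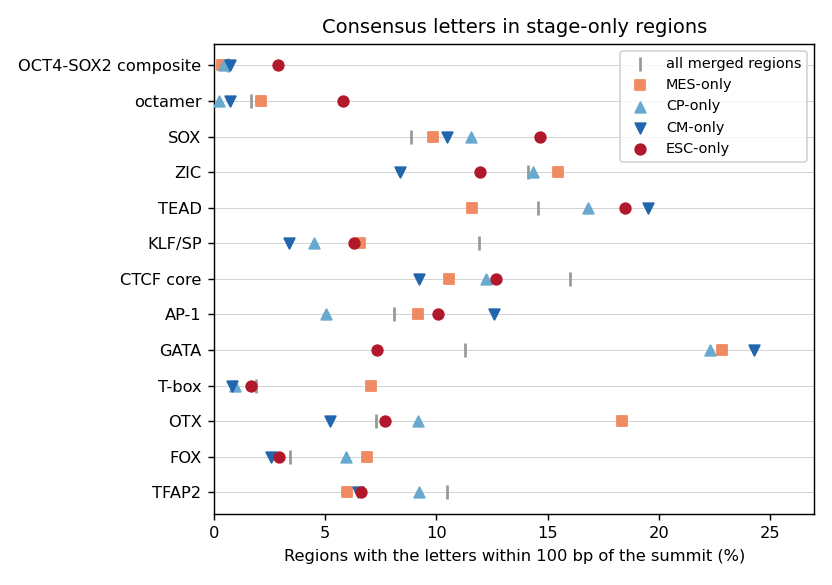
Share of regions (%) with each of 13 consensus motifs within 100 bp of the summit, for ESC-only, MES-only, CP-only and CM-only regions and for all merged regions. The ESC-only regions stand to the right of every other set for the composite (2.86%), the octamer (5.79%) and SOX (14.7%), and to the left of every other set for GATA (7.30%).

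The composite also stood closer to the summit than any of the other 12 motifs. Its centre was a median of 26.5 bp from the summit in the 246 ESC-only regions that held it, and within 50 bp in 72.8%. The octamer stood a median of 37.5 bp away, SOX 40 bp and TEAD 41 bp. GATA and OTX letters stood 54 bp and 53 bp away, with 46.5% and 47.6% within 50 bp. In MES-only regions the T-box (34 bp), ZIC (37.5 bp), GATA (38 bp) and OTX letters (38 bp) lay closest to the summit. ESC-only regions with the composite had median folds of 4.92 and 5.42, beside 4.59 and 4.63 without it, and 0.407% of them lay within 1 kb of a TSS, beside 2.43%.

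The motif shares were compared over libraries, because regions are not replicates. For each of the 8 libraries the peaks that overlapped no peak of the other 3 stages were taken as its private peaks, 16896 and 40460 in the ESC libraries and 7805 to 33306 in the others. The composite stood in 1.96% and 1.37% of private ESC peaks, in 0.377% and 0.426% of MES, in 0.291% and 0.351% of CP and in 0.428% and 0.577% of CM peaks. Both ESC libraries lay above all 6 others. The mean was 1.66% ± 0.417 (SD, n = 2) in ESC and 0.408% ± 0.0971 (SD, n = 6) in the others, with p = 0.0714 by the exact permutation test over 28 assignments, two-sided with the smaller one-sided p multiplied by 2, and 0.229 after Benjamini-Hochberg adjustment over 16 measures. Computed in this way, no comparison of 2 with 6 libraries can go below 0.0714, so that none can reach 0.05. The 6 others were 3 stages of 2 libraries each, and the test treated all 8 libraries as interchangeable.

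The octamer stood in 4.08% and 3.09% of private ESC peaks. It stood in 1.64% and 1.63% of MES peaks and in 0.455% to 0.692% of CP and CM peaks, so that ESC lay above MES and MES above the later stages without overlap. SOX letters stood in 12.7% and 11.03% of private ESC peaks and in 8.57% to 10.5% of the others. The CTCF core stood in 12.9% and 13.4%, beside 9.22% to 12.9%, a gap between the groups of under 0.1 percentage points. GATA letters stood in 8.10% and 6.07%, beside 10.1% to 21.8%. For these 4 motifs too the ESC libraries lay outside the other 6 at the smallest p of 0.0714 (exact permutation test, 0.229 adjusted). The other 11 measures overlapped. Distance to the TSS was among them, with a median of 62559 and 56090 bp in ESC and of 43486 to 62689 bp in the others (exact permutation p = 0.50, 0.831 adjusted), and so was GC, with 49.0% and 51.5% beside 46.5% to 53.0% (exact permutation p = 1). TEAD letters stood in 16.6% and 16.3%, between 11.6% in MES replicate 1 and 19.99% in CM replicate 2 (exact permutation p = 0.571, 0.831 adjusted).

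**Figure D4:**
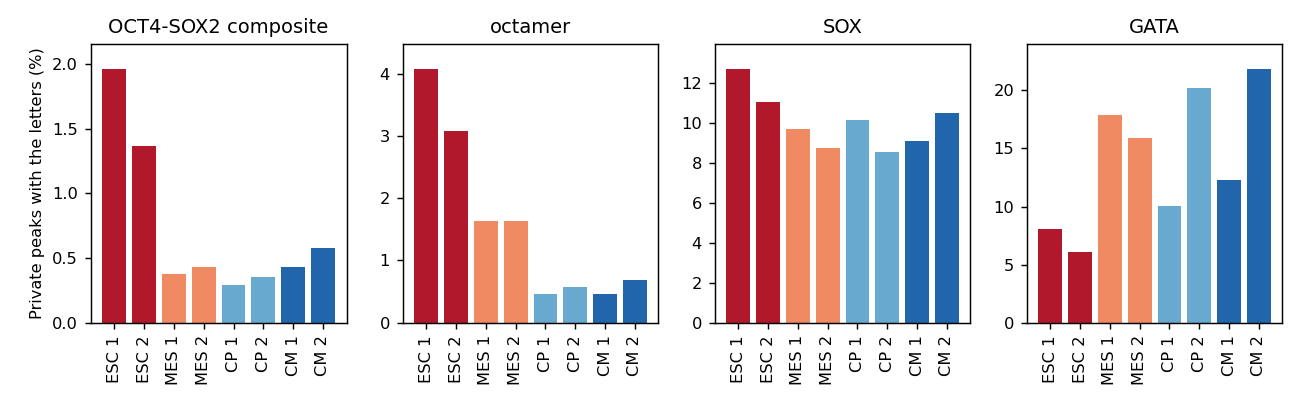
Share of private peaks (%) that hold the OCT4-SOX2 composite, the octamer, SOX or GATA letters within 100 bp of the summit in each of the 8 libraries, with bars from 0 and 1 library per bar. Both ESC libraries stand above all 6 others for the first 3 motifs and below all 6 for GATA, where they reached 8.10% and 6.07%.

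Several composites in ESC-only regions resembled each other in their flanking bases. This comparison was added after the data had been seen. With 13 bases on each side of the composite, 35 in all, and at most 7 mismatches, the most common form was shared by 9 ESC-only regions on 8 chromosomes, and the next by 7 regions on 6 chromosomes. The sequences that the others resembled were these, with the composite in capitals.
UBASH3B, chr11:122411526-122411560, minus strand: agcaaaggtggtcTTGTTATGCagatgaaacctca
INTU, chr4:127540719-127540753, minus strand: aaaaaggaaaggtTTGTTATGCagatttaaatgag

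Among all 1839 merged regions with a composite, 30 had the first form. All 30 had a peak in at least 1 ESC list and 22 in both. A peak was listed at 23 and 29 of them in the ESC libraries, at 12 and 14 in the MES libraries, at 5 and 1 in the CP libraries and at 0 in both CM libraries. The 9 that are ESC-only lay nearest to BEND4, ADGRL4, FGF9, PSKH2, RAD51B, CAMK1G, ATP2B1, UBASH3B and STS, at a median of 244207 bp, with folds of 3.48 to 8.94 in replicate 1 and 4.63 to 9.21 in replicate 2. The second form was found in 9 merged regions, of which 9 and 8 were in the ESC lists, 1 in each of the MES and CP lists and 0 in the CM lists. The ESC-only regions with this form lay nearest to DAZL, FLRT2, GNA14, GRPR, CDH5, INTU and SLC7A11. Both forms were defined from ESC-only regions, so that their presence in ESC lists is partly given by the choice.

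Repeated sequence was common beyond the composite. In a search added after the data had been seen, the 200 bp summit windows were compared with each other, and 1362 ESC-only regions (15.8%) resembled at least 1 other at 80% identity over 100 bp or more. The same held for 1089 MES-only regions (13.8%), 101 CP-only regions (4.85%) and 29 CM-only regions (0.967%), sets of unequal size. At 90% identity the ESC share was 2.72%. The share was 9.81% in the weakest quartile of ESC-only regions and 21.4% in the strongest. Linked through such pairs, 1065 regions formed 24 families of at least 10, the largest with 262. No repeat annotation was used here, and the families are given by number.

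Family 3 is shown because SOX letters, the octamer or both were frequent in it. It held 137 ESC-only regions on 20 chromosomes, none of them at a promoter, a median of 132983 bp from a TSS. SOX letters stood in 102 of them, the octamer in 41 and the composite in 1. In family 1, the largest with 262 regions, the octamer stood in 67 and SOX letters in 15. The 498 ESC-only regions with the octamer include these similar regions, so that they are not all independent sequences. Below are the 2 strongest regions of family 3, in the same orientation, with SOX and octamer letters in capitals.
Family 3, nearest TSS OR6A2, chr11:6801180-6801379, minus strand: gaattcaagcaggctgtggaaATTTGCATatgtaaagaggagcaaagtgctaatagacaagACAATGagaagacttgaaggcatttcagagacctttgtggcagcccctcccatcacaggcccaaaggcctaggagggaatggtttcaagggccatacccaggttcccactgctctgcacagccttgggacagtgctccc
Family 3, nearest TSS IRAK1BP1, chr6:78570153-78570352, minus strand: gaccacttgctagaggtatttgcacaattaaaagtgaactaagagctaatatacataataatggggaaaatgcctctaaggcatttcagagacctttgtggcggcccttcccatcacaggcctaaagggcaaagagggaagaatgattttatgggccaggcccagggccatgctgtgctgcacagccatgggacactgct

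The region near OR6A2, an olfactory receptor gene, was 11.2- and 10.6-fold over background and held both motifs. The region near IRAK1BP1 was 12.1- and 10.2-fold and held neither. The median fold of the family was 5.16 in ESC replicate 1 and 5.99 in replicate 2. A family is a chain of pairs, so that not every member resembles every other.

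In families 2 and 4, the merged regions that resembled the sequence with the most links were listed mostly in ESC. That sequence is shown for each, with TEAD and GATA letters in capitals.
Family 2, nearest TSS ANO10, chr3:43481415-43481614, plus strand: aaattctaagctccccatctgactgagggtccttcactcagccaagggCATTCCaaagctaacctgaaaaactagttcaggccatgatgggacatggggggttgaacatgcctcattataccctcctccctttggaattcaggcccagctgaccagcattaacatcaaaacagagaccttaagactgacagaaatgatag
Family 4, nearest TSS SPOPL, chr2:138426248-138426447, plus strand: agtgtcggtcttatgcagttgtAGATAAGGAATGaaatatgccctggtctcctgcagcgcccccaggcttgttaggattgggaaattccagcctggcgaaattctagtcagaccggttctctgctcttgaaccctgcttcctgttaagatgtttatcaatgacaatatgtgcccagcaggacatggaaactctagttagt

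Family 2 held 160 regions, 13 with the composite, 13 with the octamer, 40 with TEAD and 33 with GATA letters. Of 115 merged regions that resembled its sequence, the ESC libraries listed 77 and 103, the MES libraries 14 and 24, the CP libraries 4 and 7, and the CM libraries 3 and 0. Family 4 held 63 regions, none with composite or octamer, 28 with SOX and 30 with GATA letters. Of 125 merged regions like it, the ESC libraries listed 83 and 110, the MES libraries 14 and 30, the CP libraries 4 and 1, and the CM libraries 1 and 0. None of the regions like families 2 or 4 was MES-only, CP-only or CM-only. This was also true of family 8, where the ESC libraries listed 24 and 38 of 43 such regions and the MES libraries 2 and 9. For families 5, 6 and 7, regions like the most linked sequence were listed widely in MES or CP as well. Of 480 regions like family 5, 66 and 102 were in the ESC lists and 245 and 399 in MES, and 142 were MES-only against 10 that were ESC-only. Of 685 regions like family 6, the ESC libraries listed 364 and 518, the MES libraries 353 and 501, and the CP libraries 267 and 366. Of 367 like family 7, the ESC libraries listed 186 and 196 and the MES libraries 228 and 289. The sequences searched, the most linked of each family, were themselves ESC-only regions, and the counts are a description. These sequences matched 45 of the 160 ESC-only regions of family 2 and 47 of the 63 of family 4. They matched 10 of the 56 of family 5, 31 of the 48 of family 6, 25 of the 43 of family 7 and 16 of the 42 of family 8. The counts thus cover regions like that sequence and not the whole family.

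**Figure D5:**
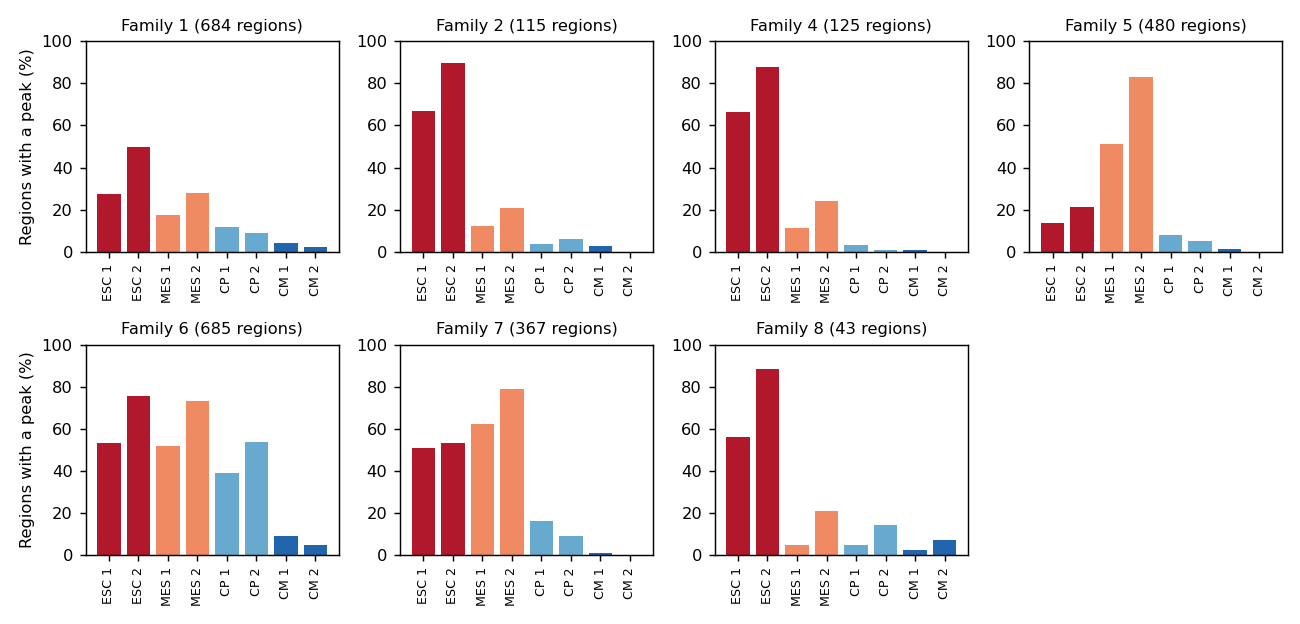
For 7 of the 8 largest families of ESC-only regions, the share (%) of all merged regions resembling the family's most linked sequence that had a peak in each of the 8 libraries. In families 2, 4 and 8 both ESC libraries stand above all others. In families 5 and 7 both MES libraries do (245 and 399 of 480 regions, and 228 and 289 of 367). Family 6 was listed at 364 and 518 of 685 regions in ESC and at 353 and 501 in MES.

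ESC-only regions were spread thinly over the genome. The merged region that followed an ESC-only region was ESC-only itself in 326 of 8596 cases (3.79%), beside 3.01% of all regions, while for MES-only regions it was 4.91% beside 2.76%. Within 10 kb of each other, 7897 of the regions stood alone, 338 formed pairs and 8 formed triplets, the largest clusters found. Of 2868 bins of 1 Mb with a merged region, 2566 held at least 1, and the highest number in a bin was 12. By chromosome the share of merged regions that were ESC-only went from 1.59% on chromosome 22 to 3.52% on chromosome 13 and 3.51% on chromosome X.

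Of the 8 triplets, 7 lay over 100 kb from any protein-coding TSS. The strongest, at chr13:64758163-64767390, spanned 9228 bp at 925.2 kb from a protein-coding TSS, with folds of 4.07 to 7.27 in replicate 1 and 4.23 to 8.66 in replicate 2. A triplet at chr4:136797008-136812324 lay in LINC02511, 720.3 kb from PCDH18, a protocadherin gene. Another at chr2:44463470-44477976 lay within CAMKMT, a lysine methyltransferase gene. A compact one of 1852 bp at chr4:138111495-138113346 lay in LINC00616, 129.3 kb from SLC7A11, the cystine transporter gene, and holds the composite printed above. The others lay nearest to CNTNAP5, EPHA7, GHITM and GPR37. The strongest pair, at chr6:155894229-155895185, reached 10.9- and 11.3-fold, and another pair lay at chr5:29827346-29833765, nearest to CDH6 at 1360.1 kb.

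By nearest TSS, the ESC-only regions fell to 4549 of 19618 protein-coding genes (23.2%), with 2799 genes holding a lone region and 37 holding 10 or more. The 20 leading genes had 104 to 305 merged regions nearest to them. PTPRD, a receptor tyrosine phosphatase gene, had 19 of the 296 merged regions nearest to it (6.42%), 14 of them within the gene, with folds of 3.14 to 11.8 in ESC replicate 1 and 3.204 to 12.3 in replicate 2. RBFOX1, a neuronal splicing factor gene, had 16 of 206 regions (7.77%), with folds up to 6.53 and 8.37. SPRY2, which encodes a feedback inhibitor of FGF signalling, had 15 of 191 (7.85%), none within the short gene and the farthest 1677.0 kb away. SGCD, a sarcoglycan gene of striated muscle, had 14 of 104 (13.5%), the highest share among the 20 leading genes, with folds up to 8.94 and 9.10. GPC5, DLG2, CNTNAP2 and PCDH18 had 14 each. SLITRK1, TMEM132B, SORCS1 and CELF4 had 13, FLRT2, NRG3, PCDH9, C4orf33 and CNTNAP5 had 12, and KLHL1 and TENM4 had 11. These genes were ranked by this number, so that their shares above 3.01% follow from the choice.

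Of 26 core pluripotency factors, 12 had at least 1 ESC-only region nearest to them (46.2%), beside 23.2% of all protein-coding genes. The 26 regions at these genes were 2.23% of all merged regions nearest to them, beside 3.01% over all genes. POU5F1, the gene of OCT4, had 1, at chr6:31189320-31189596, 8.7 kb upstream of a TSS, with folds of 5.19 and 4.47. SOX2 had 4, at 130.2 to 327.9 kb, of which 3 lie in the overlapping noncoding gene SOX2-OT. The strongest of these, chr3:181383775-181384358, was 6.20- and 9.54-fold and lay 565 bp from the nearest later-stage peak. NR5A2, a nuclear receptor gene that can replace OCT4 in reprogramming, had 4, led by chr1:199490925-199491550 at 7.50- and 10.7-fold, 536.4 kb away. TBX3 had 4, and OTX2, TFAP2C and PRDM14, the gene of a repressor of differentiation, had 2 each. KLF4, FOXD3, ZFP42 and TCF7L1 had 1 each. The one at ZFP42, the REX1 gene, lay 1.7 kb from the TSS and was 3.54- and 3.96-fold. NANOG had none.

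Of 23 genes of stem cell RNA, methylation and telomere biology, 7 had an ESC-only region (30.4%, beside 23.2% of all protein-coding genes). These were 2.06% of the merged regions nearest to them, below the 3.01% over all genes. LIN28B, whose protein blocks let-7 maturation, had one in an intron at 4.84- and 4.81-fold. JARID2, a subunit of Polycomb complexes, had 3, the highest at 4.70- and 4.63-fold. TRIM71 had one 17.6 kb from its TSS, at 4.09- and 6.71-fold, and DPPA4, TERF1, UTF1 and VRTN had 1 each. Among 21 noncoding RNA genes found in the annotation, 8 had an ESC-only region within 10 kb (38.1%), beside 12.5% of 18756 annotated lncRNA genes. Of the merged regions within 10 kb, 3.86% were ESC-only for the list (11 of 285) and 2.89% for all lncRNA genes. The 8 genes were LINC-ROR, LINC00678, SOX2-OT, LINC02418, LINC00545, TUNAR, FIRRE and LINC01194. The region in FIRRE, a noncoding RNA of nuclear architecture, was 4.51- and 4.56-fold.

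Of 26 genes of NODAL and FGF signalling, 10 had an ESC-only region (38.5%, beside 23.2% of all protein-coding genes). The 30 regions were 3.21% of the merged regions nearest to these genes, close to the 3.01% over all genes, and 15 of them lay at SPRY2. LEFTY2, a NODAL antagonist gene, had one 4.4 kb from its TSS, at 4.42- and 3.34-fold, with a composite in its window. GDF3, a NODAL-related ligand gene, had one 0.83 kb from its TSS, at 4.04- and 3.26-fold. SMAD3, which transmits the signal, had 3, one of them at its promoter at 3.08- and 3.30-fold. SMAD7, an inhibitor of the pathway, had 2.

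Neural ectoderm factors were the list with the highest share, 19 of 30 genes (63.3%), beside 23.2% of all protein-coding genes. The 58 regions were 3.49% of the merged regions nearest to these genes, close to the 3.01% over all genes. ZIC1 had 7, SOX11, POU3F2 and NR2F2 had 6 each and NR2F1 had 5. The strongest, chr15:96087196-96087548, lay 238.6 kb from NR2F2 at 9.43- and 10.3-fold. PAX6, the eye and forebrain factor, had 3, one of them 0.208 kb from a TSS at 2.95- and 2.63-fold. SOX3 had 3, one of them 0.028 kb from its TSS at 4.30- and 3.51-fold. Among cardiac genes 12 of 33 (36.4%) had an ESC-only region, MEF2C with 6 and NEBL with 5. TTN, the titin gene, had 2, both in exons, at 6.29- and 6.05-fold and at 5.93- and 5.24-fold. Primitive streak and mesoderm genes had one in 7 of 25 cases (28%), definitive endoderm genes in 6 of 15 (40%), GATA3 leading with 7, and epithelial adhesion genes in 6 of 30 (20%), beside 23.2% of all protein-coding genes. Of the merged regions nearest to these 4 lists, 2.76% (cardiac), 2.21% (mesoderm), 3.29% (endoderm) and 1.57% (adhesion) were ESC-only, beside 3.01% over all genes. Assignment is by distance only, and genes far from their neighbours collect more regions of every kind.

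The 10 strongest ESC-only regions at promoters belonged to genes of various kinds. PGK2, the testis form of phosphoglycerate kinase, led with 8.71- and 10.1-fold, 102 bp from its TSS and 9634 bp from the nearest later-stage peak. KCNIP4, a potassium channel interacting protein gene, followed with 7.64- and 8.11-fold, NOX3, an NADPH oxidase gene, with 6.71- and 7.83-fold, and RPL10L, a testis form of a ribosomal protein gene, with 6.53- and 9.97-fold. UGT2A3, RPN2, ATP10B, GSPT2, ADGRL2 and CLCC1 completed the group, at 5.51- to 7.83-fold. Over the 10 regions the gap to the nearest later-stage peak went from 87 bp at ATP10B to 9634 bp at PGK2. It was 429 bp at KCNIP4, 1594 bp at NOX3 and 9623 bp at RPL10L. The window at ADGRL2 held the octamer and none of the 10 held the composite.

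Another 13 of the 15 strongest regions lay nearest to TFEC, PTBP2, NOX3, DACH1, LMO4, NHS, DLC1, OR6A2, NRXN3, IRAK1BP1, ITPRID1, CDH11 and TAFA1, at folds of 10.1 to 12.1 in ESC replicate 1 and 10.1 to 14.1 in replicate 2. The one at TFEC, chr7:116011632-116012016, lay in an intron at 11.1-fold in both libraries. The one near NHS, chrX:17226675-17227105, was 10.7- and 13.9-fold. SOX letters stood in 7 of the 15 windows, the composite in 1 and the octamer in 1. None of the 15 lay within 1 kb of a TSS.

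The identity of the ESC-only regions depended on how long the lists were. With every list shortened to its 55777 peaks of highest −log10 q, 5211 regions were ESC-only, and 1270 of the 8597 regions overlapped one of them. In that set the composite stood in 3.53% and the octamer in 7.46%, and the next region was ESC-only in 5.89% of cases, beside 4.26% of its 122189 merged regions. Only 6705 of the 8597 had no later-stage peak within 1 kb.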

How the data were processed

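ATAC-seq peak lists of 8 RUES2 libraries, 2 per stage, were used. Per the labels and the methods, the authors mapped reads to hg38 with BWA 0.7.13, discarded alignments of mapping quality 30 or less and took out duplicate reads using Picard. MACS2 2.1.0 was then run on each library, at a q-value of 0.01. The deposited lists give each peak's fold over background (a linear ratio), −log10 p-value and −log10 q-value. The deposited lists are not normalised between libraries, and the read depth behind them is unknown here.

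Peaks on chromosomes 1 to 22 and X were merged with bedtools 2.31.1. TSSs, genes and sequence came from GENCODE 44 and GRCh38. Motifs were counted in 200 bp around the summit of highest −log10 q. Summit windows were compared with BLAST+ 2.17.0. Shares over libraries were tested by exact permutation with Benjamini-Hochberg adjustment (threshold 0.05). Region rules, lists and tests were chosen with earlier results of these data known. Genes named are the 20 with the most regions, the 10 largest clusters, the 15 strongest regions, the 10 strongest at promoters and listed stem cell genes, and genes of other lists and of sequence families were named after their values were seen. A few items that fell under these rules are not reported here. A planned measure of repeat-masked bases was not run, since the sequence used carried no masking. Merging and motif search were tested on simulated data, where all 240 planted regions and 100% of planted motifs were found. Alternatives were stricter, equal-length and unmerged lists, other overlaps, other TSSs, each library left out and a replicate block.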

Additional observations from a re-analysis of the deposited data

How the results depend on the processing

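The number of ESC-only regions, 8597, moved most with the rule for presence. It was 47935 when 1 ESC list sufficed, 2068 with a fold of at least 5 in both, and 5211 with lists of equal length. It stayed within 1.5 times under a −log10 q of at least 5 (8480), direct overlap (9082), 50% reciprocal overlap (7740) and absence within 1 kb (6705). The members still changed under the stricter q, where 7058 of the 8597 regions overlapped one of the 8480. With each library left out the number ranged from 8706 to 40448. It was 13511 without MES replicate 2, 16891 without ESC replicate 2 and 40448 without ESC replicate 1.

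Of the 16 library measures, 11 kept their direction under all alternatives run, the composite, octamer, SOX, TEAD, CTCF core and GATA shares among them. No p fell under 0.05, and with so few libraries none could. With a library left out, the highest exact permutation p was 0.286 for the composite, octamer, SOX and GATA. That is the smallest p possible once an ESC library is left out, so that it measures no weakening. For TEAD and the CTCF core p went up to 0.857. The share within 1 kb of a TSS, 0.306 percentage points higher in ESC, turned to −0.723 with lists of equal length, −3.21 over all peaks and −0.136 with TSSs of all transcripts, and ranged from −0.180 to 0.474 with a library left out. GC, 0.0833 points higher, turned to −0.167 under the stricter q, −1.5 with equal lists and −1.0 over all peaks, and ranged from −1.67 to 1.25. KLF/SP turned from 1.53 to −0.415 with equal lists and −2.27 over all peaks. ZIC ranged from −1.36 to 0.638 and TFAP2 from −1.87 to 0.428 with a library left out. The cause was not tested.

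The labels do not say whether equal replicate numbers of different stages belong together. The correlation of replicate deviations between stages over 28115 regions went from −0.119 to 0.192. With a replicate block, p was 0.125, the smallest that 16 arrangements allow, for the composite difference of 1.26 points, the octamer difference of 2.67 and the SOX, CTCF core and GATA differences, and no call changed. The lists give no read depth, and a missing peak is a missed threshold.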
